A study of Mus musculus with 6 samples.

Results

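The leptomeninges, the pia and arachnoid that wrap the optic nerve, are made of fibroblasts and arachnoid cells. A set of 35 genes known to mark these cells was followed here: the secreted and matrix proteins they lay down, their surface proteins and the transcription factors of meningeal mesenchyme. Members were found by gene symbol among 35850 genes, after the transcripts of each gene were summed, and all 35 were found. They were proposed with the difference between diets already known, so every value that compares the diets in them is a description. Counts of members from the test over all genes are given beside the share of all genes, and they do not test the set.

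The study compared optic nerves of 6-week-old mice exposed to an obesogenic diet with nerves of mice on a control diet, in 3 bulk poly(A) RNA libraries each. The obesogenic diet was AIN-76A with 58% of its energy from fat and with sucrose, and the control diet was PicoLab 5053. Both groups had the same genotype, GFAP-Cre; Nf1-Flox/R681X, in which the GFAP promoter, active in astroglia and neural progenitors, drives Cre on a floxed Nf1 allele opposite an R681X allele. Mice of this genotype form optic glioma, and the series title calls the exposure maternal. The labels do not say whether each library was 1 animal, so the spread between libraries may be technical, and littermates would not be independent. Levels are in TPM, a unit scaled to transcript length and to each library's total. The listed TPM summed to between 788456 and 832193 per library, and TPM keeps no sequencing depth, so the depth is unknown. Obesogenic library 2 stood apart, with immunoglobulin genes at 20.6% of its listed TPM, against 0.0439% or less in each of the other 5 libraries.

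As background, leptomeningeal fibroblasts make the collagen, laminin and elastic fibres of the sheath around the nerve, and they secrete proteins into the cerebrospinal fluid. Arachnoid barrier cells form the outer epithelium-like layer and are joined by E-cadherin. In mouse embryos, Foxc1 is needed for the meninges to form, and Zic, Twist, Prrx and Tbx18 proteins are transcription factors of mesenchyme or its precursors. Several of these genes are also active elsewhere: Ptgds in oligodendrocytes and choroid plexus, S100a6 in glia, Zic genes in neurons and Dpp4 in T cells.

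Of the 35 genes, 30 were at 1 TPM or more in all 6 libraries, and Fbn1 and Cdh1 were listed at 0 in some. In control libraries, 29 averaged at least 10 TPM, 9 averaged at least 100 TPM, and 10 lay in the top 10% of all genes tested. Cdh1, which encodes E-cadherin, was at 0.251, 0 and 0.859 TPM in obesogenic libraries 1, 2 and 3 and listed at 0 in each control library. Its transcript Cdh1-201, 1 of 2 principal transcripts in GENCODE M21, was not analysed here. The protein-coding Cdh1-203 was analysed and was at 0 TPM in each control library. The Cdh1 level thus leaves out Cdh1-201 and cannot show whether barrier cells were present. Across the members, 63 of 76 protein-coding transcripts in GENCODE M21 were analysed. For 5 members, Efemp1, Eln, Fbln1, Prrx1 and Slc13a3, no principal transcript was, and their levels are those of other transcripts.

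**Figure D1:**
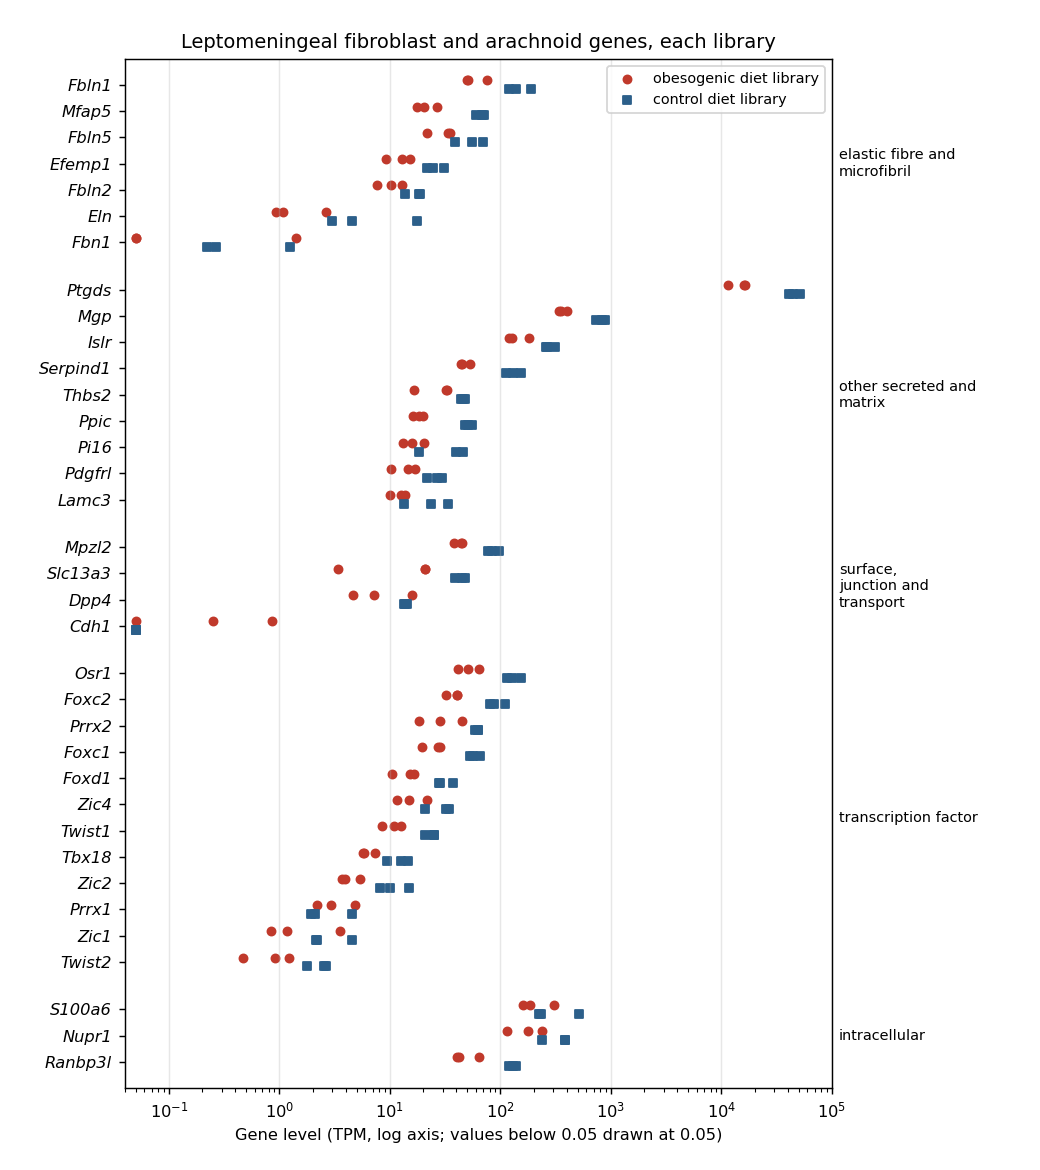
TPM of each of the 35 members in each library on a log axis, grouped by role, with obesogenic libraries as circles above control libraries as squares. Ptgds stands far above the others in both diets, and Fbn1, Cdh1 and Twist2 are the lowest.

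The order of levels in control libraries was led by secreted proteins. Ptgds came first at 45281 ± 5336 TPM (SD, n = 3), Mgp second at 816 ± 83.0 TPM and Nupr1, S100a6 and Islr next at 336, 325 and 277 TPM. Ptgds and Mgp each stood clear of the next gene in every control library, whereas Nupr1, S100a6 and Islr overlapped. Of 34 neighbouring pairs in the order, 8 had control libraries that did not overlap, so most neighbours could not be ranked beyond their spread. In obesogenic libraries the same 2 genes came first and second.

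Most members were lower in the obesogenic libraries. Among the 33 members that passed the filter of at least 1 TPM in at least 3 libraries, 32 had a lower obesogenic mean, against 6076 of 14364 genes tested. In 25 of the 33, every obesogenic library was below every control library, which held for 7.45% of all genes tested. The median log2 change of the 33, obesogenic minus control on the log2(TPM + 1) scale, was -1.0, against 0.08 over all genes tested, and the obesogenic mean was under 0.5 of the control mean in 20. In 0 of the 33 was every obesogenic library above every control library, which held for 8.88% of all genes. In limma's test over all genes with Benjamini-Hochberg adjustment, 0 of the 33 passed the threshold of 0.05, against 0.00696% of all genes in the lower and 0% in the higher direction. At an unadjusted p under 0.05, 29 were lower, against 5.0% of all genes. Without obesogenic library 2, 15 of the 33 passed, and so did 175 genes in the lower and 685 in the higher direction of 14007 tested. Because the members were chosen with this contrast in view, these counts support nothing beyond the libraries at hand. In bulk tissue, fewer meningeal cells and less RNA per cell cannot be told apart.

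**Figure D2:**
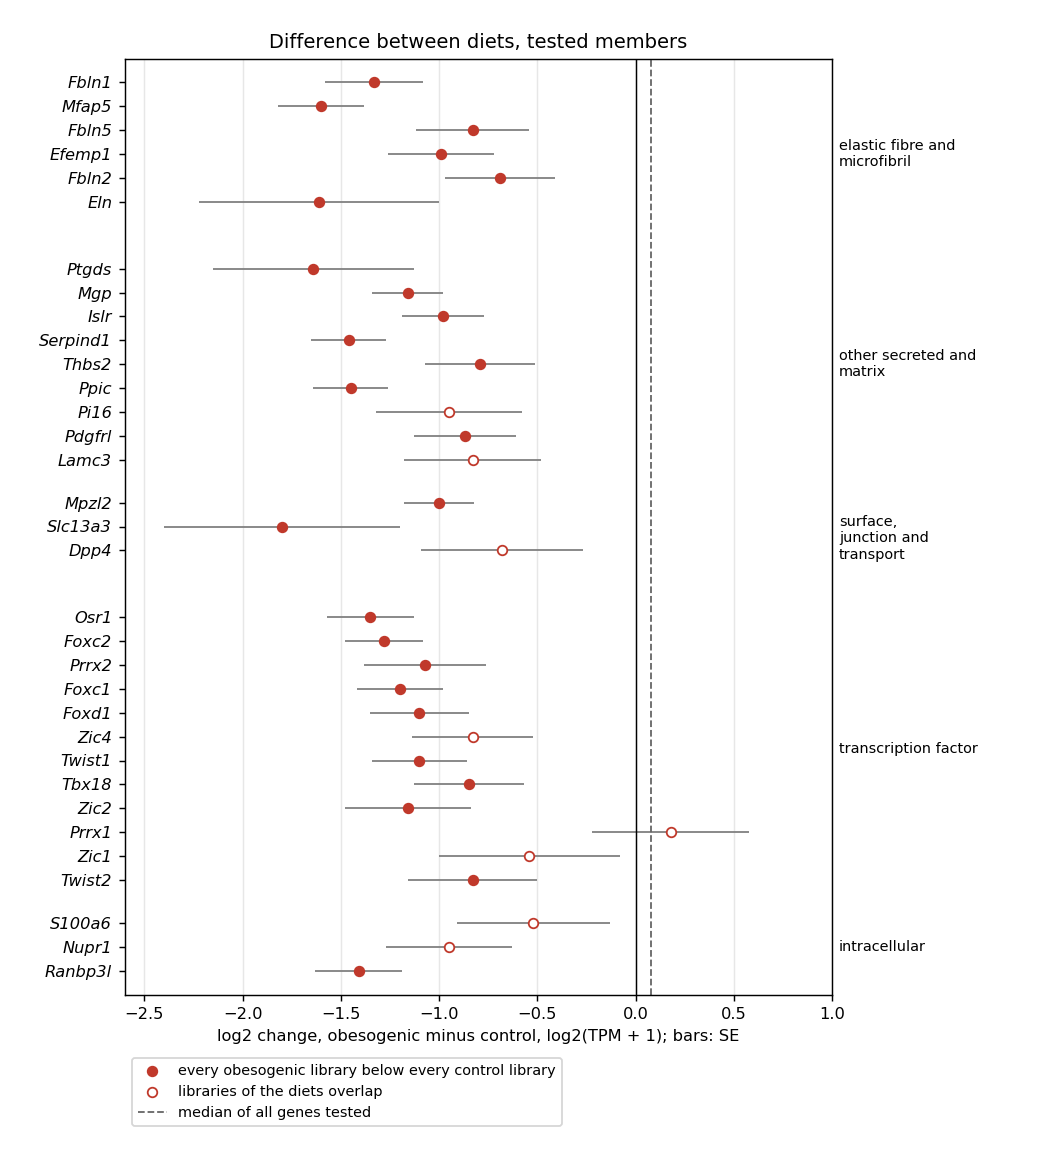
The log2 change of each tested member, obesogenic minus control, by role, with its standard error from limma, which draws on all genes tested. Filled points mark the 25 members whose libraries do not overlap, open points the 8 that do, and the dashed line is the median of all genes tested. Prrx1 is the 1 member right of 0.

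Among elastic fibre and microfibril genes, all 6 tested had every obesogenic library below every control library as deposited, against 7.45% of all genes. After rescaling without immunoglobulin genes, Fbln5 and Fbln2 overlapped between the diets. With that scaling, 23 of the 33 tested members lay wholly below control, against 5.78% of all genes. Fbln1, encoding fibulin-1, a glycoprotein of elastic fibres and basement membranes, measured 75.7, 50.7 and 50.1 TPM in obesogenic libraries 1, 2 and 3, against 119, 191 and 138 TPM in control libraries 1, 2 and 3. Its log2 change was -1.33 (SE 0.25, n = 3 each). Each SE given here is limma's moderated value, which draws on the spread of all genes tested. It is not the spread of the gene's own libraries alone. Mfap5, a microfibril-associated glycoprotein, measured 20.2, 26.9 and 17.5 TPM in obesogenic libraries and 71.3, 67.9 and 60.5 TPM in control libraries, a log2 change of -1.60 (SE 0.22). The diets were far apart in both genes, and control library 2 was the highest for Fbln1. Fbln5, a fibulin needed for elastic fibre assembly in mice, measured 33.7, 34.8 and 21.5 TPM in obesogenic libraries, against 69.6, 55.3 and 38.9 TPM in control libraries. Here the gap between the highest obesogenic and the lowest control library was small.

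Efemp1, or fibulin-3, measured 12.9, 15.2 and 9.28 TPM in obesogenic libraries and 30.9, 24.4 and 21.6 TPM in control libraries. Fbln2, or fibulin-2, measured 7.65, 12.8 and 10.2 TPM in obesogenic libraries, against 18.5, 18.8 and 13.7 TPM in control libraries. Fbln2 had the smallest log2 change of these genes, -0.69 (SE 0.28). Eln, the elastin gene, measured 0.936, 1.07 and 2.62 TPM in obesogenic libraries, against 2.98, 17.5 and 4.56 TPM in control libraries. The Eln value was made of retained-intron and nonsense-mediated decay transcripts alone, since Eln-201, its 1 protein-coding transcript in GENCODE M21, was not analysed here. Its high value in control library 2 came mainly from Eln-203, a nonsense-mediated decay transcript at 8.93 TPM there, at 0 TPM in every obesogenic library and in control library 1, and at 1.94 TPM in control library 3. Without control library 2 the log2 change of Eln was -0.95, against -1.61 with it. Fbn1, encoding the microfibril protein fibrillin-1, was at 1.42 TPM or less in every library and did not pass the filter, and Fbn1-201, a principal transcript, was not analysed here.

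The promoter of Fbln1 is shown because Fbln1 was the most abundant gene of this role. The sequence is the 250 bases before the most upstream RefSeq start, chr15:85205699-85205948 of GRCm38.p6, plus strand, 5′ to 3′, and motifs found are in capitals in each promoter shown. It held none of the 6 motifs searched.
Fbln1: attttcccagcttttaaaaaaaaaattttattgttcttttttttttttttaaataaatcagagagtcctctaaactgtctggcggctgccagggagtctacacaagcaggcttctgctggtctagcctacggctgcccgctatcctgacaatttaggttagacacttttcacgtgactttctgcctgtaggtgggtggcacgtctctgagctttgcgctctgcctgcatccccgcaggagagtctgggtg

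Secreted enzymes, inhibitors and matrix proteins held the most abundant members. Ptgds encodes lipocalin-type prostaglandin D synthase, a major protein of cerebrospinal fluid. It measured 16087, 11467 and 16482 TPM in obesogenic libraries 1, 2 and 3, against 40722, 51149 and 43973 TPM in control libraries, a log2 change of -1.64 (SE 0.51). This single gene made up 2.02%, 1.38% and 2.09% of the listed TPM in obesogenic libraries and 5.09%, 6.41% and 5.45% in control libraries. It ranked first of all genes in every control library and in obesogenic library 3, and it ranked 3 and 6 in obesogenic libraries 1 and 2. Because oligodendrocytes also express Ptgds, their markers are given beside it. All 10 mature oligodendrocyte markers had a lower obesogenic mean, 0 passed in limma over all genes and 3 were lower at an unadjusted p under 0.05, against 5.0% of all genes. Their summed level ranged from 26997 to 55241 TPM in obesogenic libraries and from 61849 to 69792 TPM in control libraries, with no marker at 0 throughout. Their median deviation, log2(TPM + 1) minus the gene's mean over control libraries, was -0.22, -0.81 and -0.95 in obesogenic libraries 1, 2 and 3, where that of Ptgds was -1.49, -1.97 and -1.45, and their part in the Ptgds difference was not tested. Of 5 choroid plexus markers tested, 4 had a lower obesogenic mean, 0 passed, and in 2, Kcnj13 and Kl, every obesogenic library was below every control library, against 7.45% of all genes. Kl averaged 8.97 TPM in obesogenic and 22.1 TPM in control libraries. Ttr, the marker that defines this epithelium, was at 2.10 TPM or less in obesogenic libraries and at 6.31 TPM or less in control libraries, and the part of this tissue in the Ptgds difference was not tested.

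The leading transcript of Ptgds kept a similar share in both diets. Ptgds-204, annotated as a processed transcript without a coding sequence, held 35.1%, 37.3% and 36.7% of the gene's listed TPM in obesogenic libraries and 38.2%, 37.5% and 35% in control libraries. The coding transcripts Ptgds-203 and Ptgds-202 held 29.1% and 32.1% of the pooled obesogenic level and 32.1% and 29.2% of the pooled control level. A further coding transcript, Ptgds-201, was not analysed here. The promoter of Ptgds is shown as that of the most abundant member, chr2:25469750-25469999, minus strand, and its capitals mark an E-box, CATCTG read on the other strand.
Ptgds: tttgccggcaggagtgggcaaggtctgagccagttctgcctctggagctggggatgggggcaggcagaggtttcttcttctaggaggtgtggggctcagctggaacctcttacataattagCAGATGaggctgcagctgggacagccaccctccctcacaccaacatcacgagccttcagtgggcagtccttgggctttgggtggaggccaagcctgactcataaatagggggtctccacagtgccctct

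Mgp encodes matrix Gla protein, an inhibitor of calcification. It measured 350, 400 and 341 TPM in obesogenic libraries and 891, 829 and 727 TPM in control libraries, a log2 change of -1.16 (SE 0.18). Islr, a leucine-rich repeat protein of stromal cells, measured 127, 180 and 119 TPM in obesogenic libraries, against 266, 309 and 256 TPM in control libraries. In both genes obesogenic library 2 was the highest of its diet and still below each control library. Serpind1, heparin cofactor II, a thrombin inhibitor, measured 53.0, 44.6 and 43.6 TPM in obesogenic libraries and 154, 129 and 112 TPM in control libraries. Ppic, cyclophilin C, a prolyl isomerase of the secretory pathway, measured 18.4, 20.1 and 16.2 TPM in obesogenic libraries, against 54.9, 50.6 and 48.3 TPM in control libraries. Neither gene overlapped between the diets, and their log2 changes were -1.45 for Ppic and -1.46 for Serpind1 (SE 0.19 each). Thbs2, thrombospondin-2, a matricellular protein, measured 32.3, 32.6 and 16.7 TPM in obesogenic libraries and 47.8, 45.7 and 44.0 TPM in control libraries. For Thbs2, obesogenic library 3 lay well below the other two, and the log2 change was -0.79 (SE 0.28) with it and -0.48 without it. The remaining genes of this role were Pi16, a marker of adventitial fibroblasts, Pdgfrl, a PDGF receptor-like protein, and Lamc3, the laminin γ3 chain. They averaged 16.4, 14.0 and 12.1 TPM in obesogenic libraries, against 34.4, 26.1 and 23.6 TPM in control libraries. In Pi16 and Lamc3 the diets overlapped, because control library 3 was low at 18.4 and 13.5 TPM.

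Surface and transport genes were less uniform. Mpzl2, an adhesion protein related to myelin protein zero, measured 44.8, 44.0 and 37.7 TPM in obesogenic libraries, against 76.5, 97.2 and 83.5 TPM in control libraries, a log2 change of -1.0 (SE 0.18). Slc13a3, a sodium-coupled dicarboxylate transporter, measured 20.8, 3.39 and 20.7 TPM in obesogenic libraries and 47.5, 44.5 and 38.5 TPM in control libraries. Its log2 change of -1.80 (SE 0.60) was the lowest of the members, and it was -1.03 without obesogenic library 2. Dpp4, a cell-surface peptidase, measured 7.24, 15.8 and 4.64 TPM in obesogenic libraries, against 13.7, 13.3 and 14.2 TPM in control libraries. Control libraries were nearly level for Dpp4, and obesogenic library 2 was the highest of all 6. The log2 change of Dpp4 was -0.68 (SE 0.41), with -1.11 without that library and -0.32 without obesogenic library 3. Obesogenic library 2 also held the B and plasma cell markers, all 7 of which were highest in it, at a summed 2521 TPM. Their sum was 3.04 to 4.75 TPM in the other obesogenic libraries and 3.82 to 13.8 TPM in control libraries. Of the 3 B and plasma cell markers that could be tested, all had a higher obesogenic mean, and 0 passed. Cd3e, a T cell gene beside Mpzl2, was chosen after its values were seen. It measured 0.277, 31.6 and 0.679 TPM in obesogenic libraries 1, 2 and 3, against 2.58, 2.84 and 1.67 TPM in control libraries. The part of T cells or other immune cells in the Dpp4 value was not tested.

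**Figure D3:**
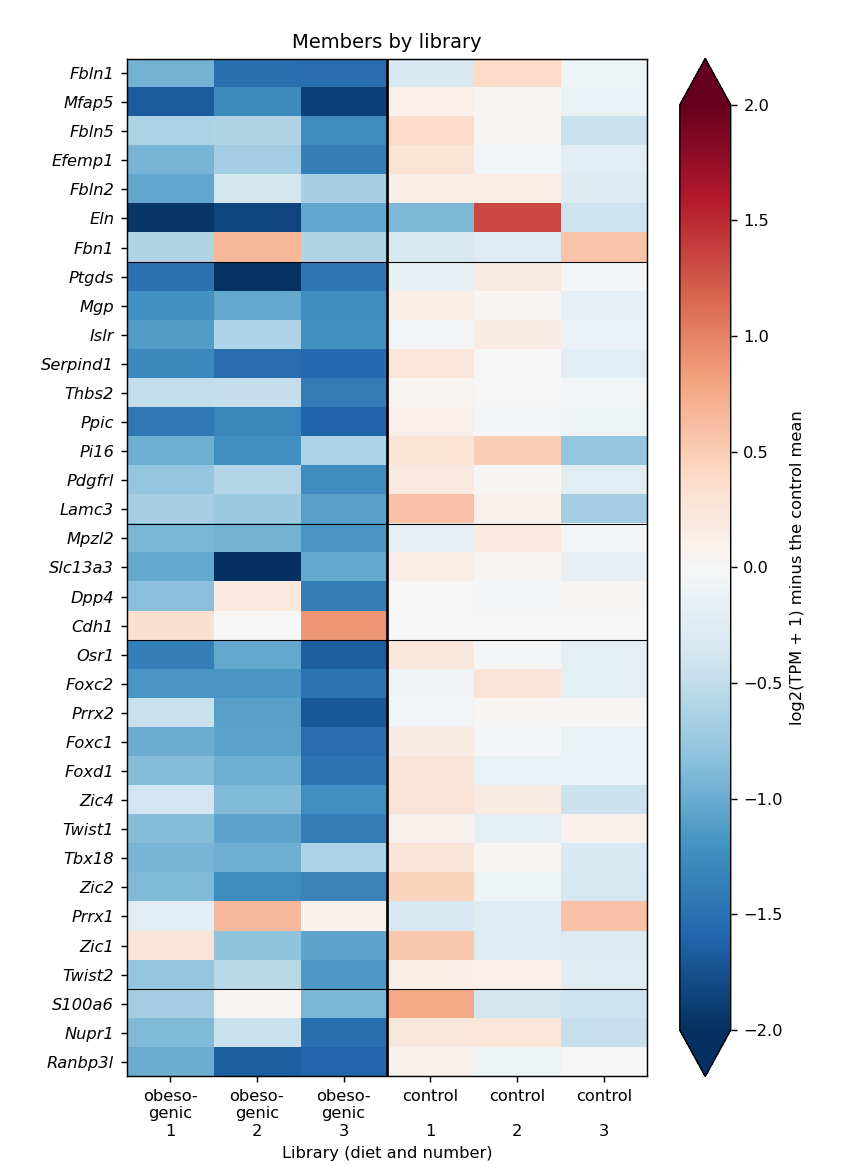
The log2(TPM + 1) of each member in each library minus its mean over control libraries, with obesogenic libraries in the left columns. Blue is lower than the control mean. Most obesogenic cells are blue. Those that are not belong to Fbn1, Dpp4, Cdh1, Prrx1, Zic1 and S100a6.

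Among the 12 transcription factors, obesogenic means were lower for 11, and 9 of them lay wholly below control, against 7.45% of all genes. Osr1, a zinc finger factor of embryonic mesenchyme, was the most abundant. It measured 50.5, 64.0 and 41.3 TPM in obesogenic libraries, against 155, 128 and 115 TPM in control libraries, a log2 change of -1.35 (SE 0.22). Foxc2, a forkhead factor of mesenchyme, measured 40.3, 40.4 and 32.5 TPM in obesogenic libraries and 87.7, 111 and 80.7 TPM in control libraries. Its paralogue Foxc1 measured 28.4, 27.1 and 19.4 TPM in obesogenic libraries, against 65.0, 56.9 and 52.6 TPM in control libraries. Foxc2 was above Foxc1 in each library, by 1.42 to 1.68 times in obesogenic and 1.35 to 1.95 times in control libraries. Foxd1, a forkhead factor of stromal precursors, measured 16.5, 15.3 and 10.5 TPM in obesogenic libraries and 37.2, 28.3 and 28.1 TPM in control libraries. Prrx2, a homeobox factor of mesenchyme, measured 45.0, 28.4 and 18.3 TPM in obesogenic libraries, against 59.2, 62.8 and 62.1 TPM in control libraries. For Prrx2 the control libraries were close together and the obesogenic libraries widely spread. The retained-intron transcript Prrx2-204 held 31.5% of its level in obesogenic library 1, and 2.74% to 9.97% in the other 5 libraries. Its paralogue Prrx1 averaged 3.30 ± 1.34 TPM in obesogenic and 2.85 ± 1.44 TPM in control libraries (SD, n = 3 each), and was the 1 tested member without a lower obesogenic mean. Prrx1-201, the principal transcript of Prrx1, was not analysed here.

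Zic4 measured 21.7, 15 and 11.7 TPM in obesogenic libraries, against 34.2, 32.3 and 20.9 TPM in control libraries. Obesogenic library 1 was above control library 3, so the diets overlapped. Zic genes encode zinc finger factors, and Zic4 lies beside Zic1 on chromosome 9, in opposite orientation, with RefSeq starts 3204 bases apart in GRCm38.p6. Zic1 measured 3.56, 1.18 and 0.843 TPM in obesogenic libraries and 4.58, 2.20 and 2.15 TPM in control libraries. Zic4 thus exceeded Zic1 in each library, by 6.09 to 13.8 times in obesogenic and 7.46 to 14.7 times in control libraries, over the transcripts analysed. The Zic1 level leaves out Zic1-201, a principal transcript that was not analysed here. Zic2 averaged 4.30 TPM in obesogenic and 11.1 TPM in control libraries, with no overlap.

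The promoters of this neighbouring pair are shown because their levels differed. The Zic1 sequence is chr9:91365769-91366018, minus strand, and its capitals mark GGGCGG, the SP1 motif, and GGAATG, the TEAD motif. The Zic4 sequence is chr9:91368722-91368971, plus strand, and held none of the motifs searched.
Zic1: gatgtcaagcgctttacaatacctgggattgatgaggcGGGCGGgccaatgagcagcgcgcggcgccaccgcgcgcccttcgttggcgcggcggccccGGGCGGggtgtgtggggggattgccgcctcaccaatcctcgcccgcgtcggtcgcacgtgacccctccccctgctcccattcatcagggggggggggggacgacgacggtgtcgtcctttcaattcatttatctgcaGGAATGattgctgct
Zic4: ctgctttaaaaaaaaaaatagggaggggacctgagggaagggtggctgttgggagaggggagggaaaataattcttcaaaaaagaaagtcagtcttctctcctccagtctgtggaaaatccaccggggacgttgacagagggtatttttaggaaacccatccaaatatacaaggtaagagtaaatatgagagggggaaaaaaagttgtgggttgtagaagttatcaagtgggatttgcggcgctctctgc

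Twist1, a helix-loop-helix factor of cranial mesenchyme, averaged 10.7 ± 2.08 TPM in obesogenic and 23.8 ± 2.58 TPM in control libraries. Its paralogue Twist2 averaged 0.871 TPM in obesogenic and 2.30 TPM in control libraries. Tbx18, a T-box factor also found in mural cells, averaged 6.30 TPM in obesogenic and 12.2 TPM in control libraries. In each of the 3 genes every obesogenic library was below every control library. Tbx18 in obesogenic library 3 held 56.2% of its level in Tbx18-202, a processed transcript at 0 TPM in the other 5 libraries.

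The intracellular members overlapped more. S100a6, a calcium-binding protein, measured 185, 308 and 160 TPM in obesogenic libraries and 517, 233 and 225 TPM in control libraries. Obesogenic library 2 was above 2 of the control libraries, and control library 1 was far above the other 2. The log2 change of S100a6 was -0.52 (SE 0.39), and leaving out 1 library moved it between -0.80, without obesogenic library 2, and -0.13, without control library 1. It was -0.33 without obesogenic library 3. Nupr1, a stress-induced nuclear protein, measured 178, 240 and 114 TPM in obesogenic libraries, against 382, 388 and 238 TPM in control libraries. Obesogenic library 2 and control library 3 were nearly level for Nupr1. Nupr1-205, a nonsense-mediated decay transcript, held 40.8%, 42.9% and 37.9% of the gene in obesogenic and 41.1%, 34.2% and 43.3% in control libraries. Ranbp3l, a Ran-binding protein, measured 63.9, 40.3 and 42.2 TPM in obesogenic libraries, against 137, 119 and 129 TPM in control libraries, with a log2 change of -1.41 (SE 0.22). The promoter of S100a6, which had the highest mean of this role over all 6 libraries though Nupr1 was above it in the control mean, is chr3:90612644-90612893, plus strand, and held none of the motifs.
S100a6: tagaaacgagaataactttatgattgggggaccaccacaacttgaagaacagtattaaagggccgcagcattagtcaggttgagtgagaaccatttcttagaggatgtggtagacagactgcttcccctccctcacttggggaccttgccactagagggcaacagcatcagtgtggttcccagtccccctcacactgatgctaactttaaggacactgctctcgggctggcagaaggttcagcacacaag

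Some members were made up almost wholly of 1 transcript among those analysed, and others of several. The 35 genes had 116 listed transcripts. In 19 genes, 1 transcript held over 90% of the level, and in 32 genes the leading transcript was protein-coding. The 19 include 6 genes with only 1 listed transcript, whose share was fixed in advance. Transcripts not analysed here could lower some of the shares. Osr1-202, the minor coding transcript of Osr1, held 24.7% of the pooled obesogenic and 15.3% of the pooled control level, with obesogenic library 2 at 33.5% and the other 5 libraries between 10.1% and 21.7%. In Slc13a3, the coding transcript Slc13a3-202 held 66.7% and 66.5% of the obesogenic and control level. These shares were not tested.

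**Figure D4:**
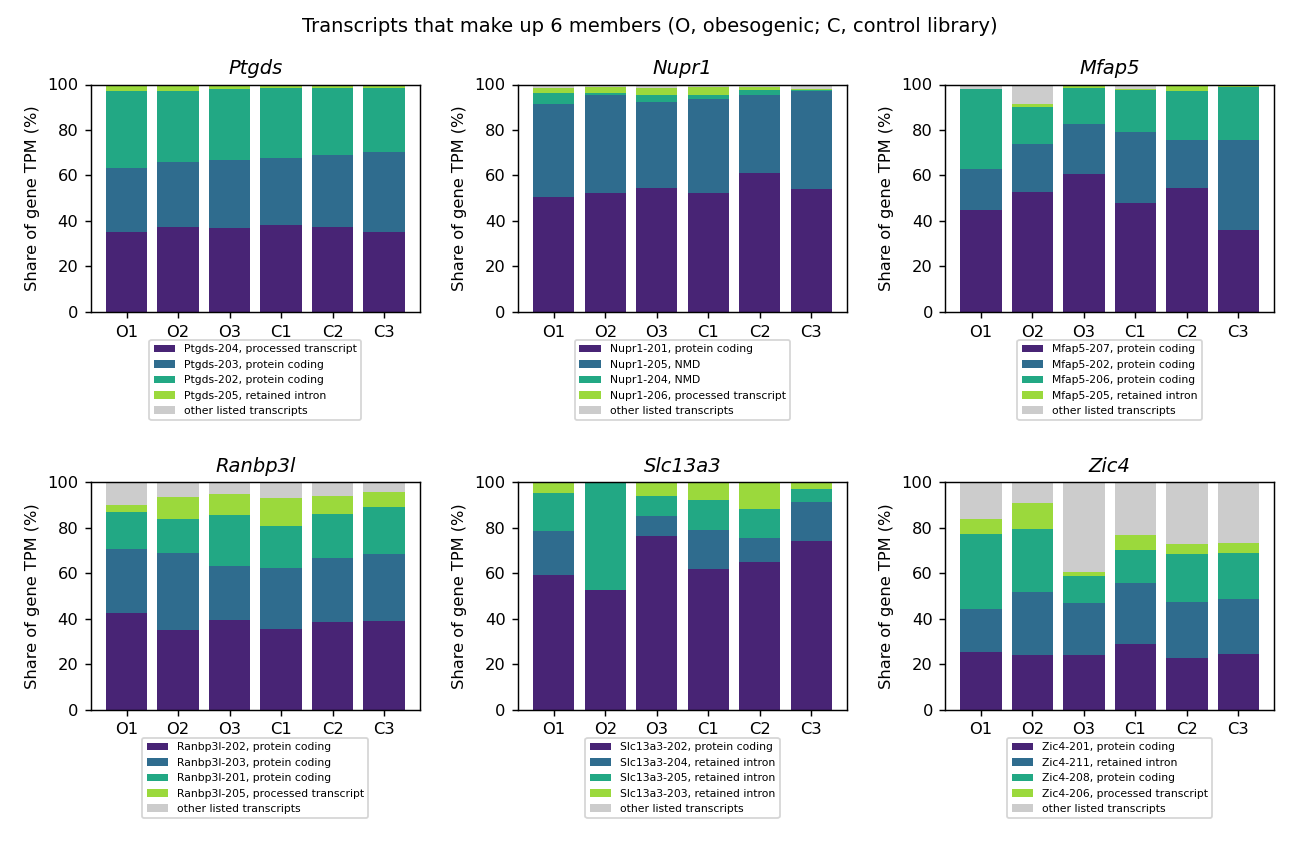
Share of each gene's listed TPM held by its leading transcripts in obesogenic (O) and control (C) libraries, for 6 members with several transcripts. Bars of Ptgds and Nupr1 look alike in all 6 libraries, and Slc13a3 in obesogenic library 2, at 3.39 TPM in all, shows no Slc13a3-204 or Slc13a3-203.

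Upstream windows of 250 bases were found in RefSeq for 24 of the 35 members and searched on both strands. GGGCGG, the SP1 motif, was in 12 of the 24 windows (50%), against 33.0% of 27025 windows of all genes. The median GC content was 57.8% in member windows and 52.0% in all windows. TATAAA was in 3 member windows (12.5%, against 13% of all), CATCTG in 3 (12.5%, against 14.5%) and GGAATG in 3 (12.5%, against 12.6%). TGTTTAC, the FOX motif, and CATATG, an E-box, were in 0 member windows, against 3.06% and 3.48% of all windows. No motif contains another, and these shares are descriptions without a test.

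The drop was not equal in the 3 obesogenic libraries. The median deviation of the 33 members from their control means was -0.93, -0.97 and -1.33 log2 units in obesogenic libraries 1, 2 and 3, against 0.13, 0.03 and -0.19 in control libraries 1, 2 and 3. Of the 33 members, 25 were lowest within the obesogenic diet in library 3, 5 in library 2 and 3 in library 1. After rescaling without immunoglobulin genes the medians were -0.92, -0.73 and -1.30 in the obesogenic libraries, and 26 members were lowest in library 3. Neuronal markers were highest in that same library. All 10 had a higher obesogenic mean, 0 passed and 7 were higher at an unadjusted p under 0.05, where 5.97% of all genes were. Their summed level was 603, 250 and 1492 TPM in obesogenic libraries and 167, 132 and 240 TPM in control libraries, with no marker at 0 throughout. The part of neuronal tissue in the member values was not tested.

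Other genes of the meninges, outside the member list, were also lower. Among 35 tested from a list of 36, obesogenic means were lower for 34, and 25 lay wholly below control, against 7.45% of all genes, with a median log2 change of -1.33. In limma, 0 of the 35 passed and 25 were lower at an unadjusted p under 0.05, against 5.0% of all genes, and this list too was written with earlier results known. Its most abundant genes were Gjb6, a connexin also found in astrocytes, Igf2, an insulin-like growth factor, and Cldn11, a claudin of arachnoid and myelin. Igf2 measured 130, 142 and 125 TPM in obesogenic libraries, against 623, 654 and 367 TPM in control libraries (limma adjusted p = 0.119). Its log2 change was -2.0, against -0.93 (SE 0.44) for Gjb6 and -1.12 (SE 0.24) for Cldn11. Gjb6 measured 343, 112 and 327 TPM in obesogenic libraries, against 445, 546 and 360 TPM in control libraries. Rdh10, a retinol dehydrogenase of the same list, chosen after its values were seen, averaged 12.1 TPM in obesogenic and 11.7 TPM in control libraries. Paralogues and partners of the members had a median log2 change of -0.65 over 25 tested of 28. Foxf2, a forkhead gene next to Foxc1 in RefSeq, measured 10.7, 10.3 and 9.98 TPM in obesogenic libraries and 28.2, 26.6 and 22.3 TPM in control libraries (limma adjusted p = 0.162), with no overlap.

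Vessel and macrophage lists were lower as well. Endothelial markers had median deviations of -0.90, -1.08 and -0.67 in obesogenic libraries 1, 2 and 3, and all 12 had a lower obesogenic mean. Pericyte and smooth muscle markers had -1.06, -1.13 and -0.70, with 9 of 9 tested lower. Pdgfrb was listed at 0 in every library, and its principal transcript was not analysed here. Border macrophage markers had -0.87, -1.70 and -1.35, with 7 of 7 lower. Astrocyte markers had 0.38, -0.59 and -0.47, with 7 of 10 lower. Summed endothelial levels were 354 to 469 TPM in obesogenic and 666 to 1094 TPM in control libraries, and summed pericyte levels were 427 to 444 TPM in obesogenic and 788 to 1195 TPM in control libraries. Summed border macrophage levels were 41.7 to 85.2 TPM in obesogenic and 148 to 166 TPM in control libraries. In none of these lists did a gene pass in limma, and 9, 4 and 5 of the endothelial, pericyte and macrophage genes were lower at an unadjusted p under 0.05, against 5.0% of all genes. Schwann cell markers, of which Mbp is shared with oligodendrocytes, had 5 of 5 tested lower, and skeletal muscle markers 4 of 4, while both tested pigment cell markers were higher. No photoreceptor marker passed the filter, and their summed level was 1.15 TPM or less in obesogenic libraries and 0.166 to 19.7 TPM in control libraries. Whether the members differed from these lists was not tested.

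**Figure D5:**
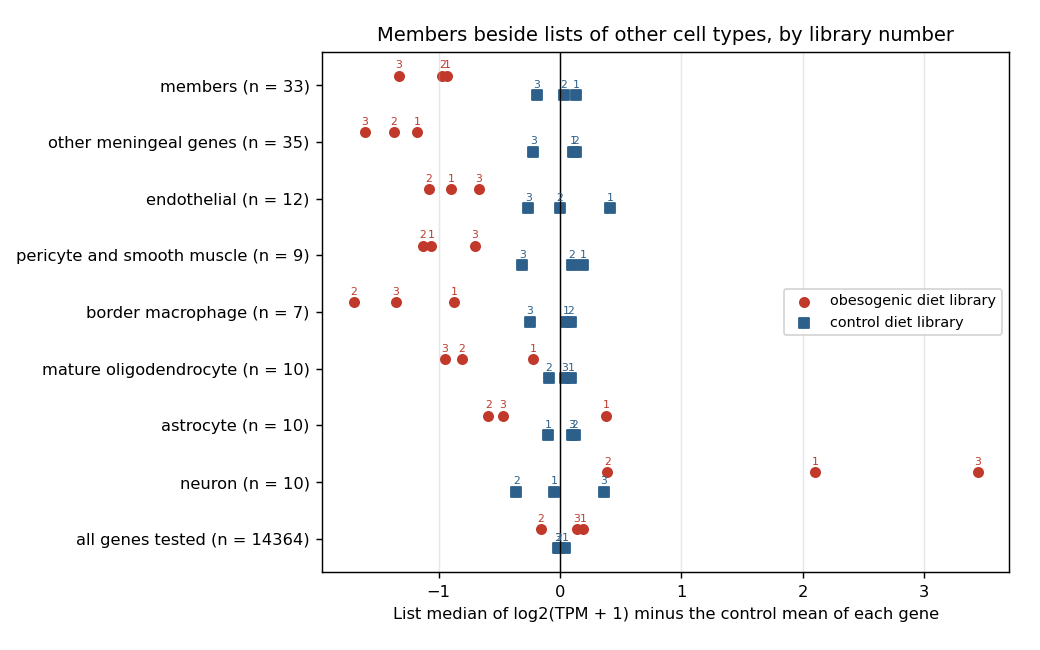
Median over each list of log2(TPM + 1) minus the control mean, for each library by its number, with obesogenic libraries as circles above control libraries as squares. Meningeal, vessel and macrophage lists lie left of their control libraries, astrocyte markers straddle 0, and neuronal markers of obesogenic libraries 1 and 3 lie far right.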

How the data were processed

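Bulk poly(A) RNA was sequenced from optic nerve in 6 libraries, 3 per diet, made with the SMART-Seq mRNA kit per the labels' protocols. The authors deposited transcript abundances in TPM. DRAGEN, STAR 2.7.9a, Subread and featureCounts 2.0.3 are named, per the submitters' processing notes, without roles. The build, the annotation and the tool behind the TPM were not stated in the sources used here. Transcripts with repeated lines were counted once (109383 transcripts from 110028 lines), and TPM was summed per gene. Sums cover the transcripts analysed here and can miss isoforms.

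The 14364 genes that reached 1 TPM in 3 or more of the 6 libraries were tested as log2(TPM + 1), obesogenic minus control, with limma 3.58.1 in R 4.3.3 (lmFit, eBayes with a mean-variance trend, two-sided) and Benjamini-Hochberg adjustment over all genes at 0.05. The log2 scale with a pseudocount of 1 understates changes of low genes. Depth is unknown, so no counting interval was computed.

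The members and lists were chosen with earlier results of these data known. Values in every library are given for up to 6 members per role with the highest mean over all libraries, and for Zic1, which lies outside that rule and was added as the neighbour of Zic4 after its values were seen. For each list the most abundant genes may be named. Alternatives in scaling, filter, pseudocount, transcripts and libraries were tried. Promoters are from RefSeq, GRCm38.p6. Transcript annotation for comparison was GENCODE M21. Figures used matplotlib 3.10.9.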

Additional observations from a re-analysis of the deposited data

How the results depend on the processing

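Under 18 alternatives (pseudocount, filter, scaling, trend, replicate block, coding genes only, leading transcript, each library left out, and a rescaling without Ptgds chosen after seeing the data), the median log2 change of tested members lay between -1.17 and -0.883, and that of other meningeal genes between -1.45 and -1.23, each within 1 SD of its main value. Between 23 and 29 members had libraries that did not overlap, against 25, while the share of all genes ranged from 5.69% to 16.1%. Of 588 member values, 580 moved by less than the spread between libraries and 8 by more. Part of this stability was fixed in advance. The filter, trend, replicate block and coding-gene settings do not alter a gene's log2 change. The pseudocount, trend and block settings do not alter which libraries overlap. Prrx1 alone changed sign, to -0.082 with the most abundant transcript per gene and -0.059 without obesogenic replicate 2. Quantile normalization set the median of all genes at -0.035, against 0.079, and the Ptgds change at -0.957. The number of genes called over all genes was 1 (Gm9836, named after its values were seen, at 0 TPM in every obesogenic library and 17.9 to 32.1 TPM in control libraries), and 0 with a pseudocount of 5, without a filter, with a mean of at least 5 TPM or with coding genes only. With the replicate number as a block, 1 gene was called, in the higher direction, and 0 members. Deviations of same-numbered libraries correlated at 0.01, 0.18 and 0.13. Obesogenic libraries 2 and 3 correlated best with the control library of the same number, and obesogenic library 1 with control library 3 (0.11). Whether same-numbered libraries share a batch or litter cannot be told from these values. The numbers used here are those of the sample titles. The sample descriptions give each library a different number and a code. With 1 library left out, genes called ranged from 0 to 860 and members called from 0 to 15. Both highest counts came without obesogenic replicate 2, which held the immunoglobulin transcripts, and the cause was not tested. TPM gives no depth, so the counting error of low members such as Twist2, Zic1 and Prrx1 is unknown.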

Other observations

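Genes beside the members on the chromosome were lower and higher in nearly equal numbers. Of 68 protein-coding neighbours in RefSeq, 50 could be tested, with a median log2 change of 0.01, 24 lower and 26 higher. Over all genes tested the median was 0.08, and 6076 of 14364 were lower. In 7 of the 50 every obesogenic library was below every control library, a larger share than the 7.45% of all genes. In limma 0 passed, and 7 of the 50 were lower at an unadjusted p under 0.05, also a larger share than the 5.0% of all genes. Whether neighbours differed from all genes was not tested. In 3, Limk1, Rimklb and Tango6, every obesogenic library was above every control library, against 8.88% of all genes. The 7 that lay wholly below, named like these 3 after their values were seen, were Foxf2, Gmds, Aif1l, Prdm6, Nt5e, Smoc2 and Pcca. Pcca, a subunit of propionyl-CoA carboxylase next to Zic2, measured 8.30, 6.18 and 3.03 TPM in obesogenic libraries, against 52.4, 19.7 and 20 TPM in control libraries. Prdm6, next to Ppic, measured 4.11, 5.82 and 6.03 TPM in obesogenic libraries and 12.3, 10.3 and 11.6 TPM in control libraries. Smoc2, a matrix protein gene next to Thbs2, measured 19.8, 14.3 and 11.0 TPM in obesogenic libraries, against 33.2, 29.5 and 41.0 TPM in control libraries.

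Kcnj13, a potassium channel gene in the choroid plexus list, measured 39.5, 32.6 and 22.2 TPM in obesogenic libraries, against 124, 95.4 and 86.3 TPM in control libraries (limma adjusted p = 0.14), while Ttr in that list was at 2.10 TPM or less in obesogenic and 6.31 TPM or less in control libraries.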
